A study of Mus musculus with 9 samples.

Results

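The cytochrome P450 genes of mouse ear skin were examined across 9 Affymetrix arrays. They were taken as all genes whose symbol starts with Cyp and a digit and which had a probe set annotated to 1 gene, without Cyp51, the sterol demethylase. The rule found 72 genes among the 18193 genes with such a probe set, covered by 95 probe sets. RefSeq lists 70 of them as protein-coding and 2 as transcribed pseudogenes. The skin came from C57BL/6 mice, 6 h after topical application to the ear, with 3 arrays for each of 3 treatments. DNFB (dinitrofluorobenzene) is named an allergen in the labels and was put on the right ear. BAC (benzalkonium chloride) is named an irritant and was also put on the right ear. The vehicle, acetone with olive oil, was put on the left ear, so the side of the ear and the compound cannot be told apart. The labels give no dose, sex or age. Replicates are numbered without a statement that they came from separate animals, so the p-values measure the spread between these arrays, which may be technical.

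Cytochromes P450 are haem enzymes that insert 1 oxygen atom into a substrate with electrons passed on by a reductase. Families 1 to 3 oxidise foreign chemicals and some fatty acids, family 4 hydroxylates the far end of fatty acids and eicosanoids, family 26 clears retinoic acid, and a set of mitochondrial and microsomal members makes and breaks down steroids, bile acids and vitamin D. In the epidermis, P450 enzymes are known for handling topical chemicals, for forming the long lipids of the permeability barrier and for setting the local level of retinoic acid.

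The values are MAS5 signals, linear intensities of 1 number per probe set and array. The trimmed mean was 250.001 in every array, and the median signal ran between 71.2 and 86.3. The Gapdh 3′ to 5′ ratio, a sign of RNA quality, was 0.841, 1.36 and 0.943 in the DNFB arrays, between 0.917 and 0.932 in the BAC arrays and between 0.856 and 0.88 in the vehicle arrays. DNFB replicate 2 was thus the array with the highest ratio. The actin 3′ to 5′ ratio was 1.09, 1.28 and 1.23 in the DNFB arrays, 1.18, 1.22 and 1.19 in the BAC arrays and 1.05, 1.05 and 1.1 in the vehicle arrays. All BAC arrays and 2 of the 3 DNFB arrays lay above every vehicle array, and the part of RNA quality in the results was not tested. A gene was tested when its signal lay above the array's 40th percentile in at least 3 of the 9 arrays. Of the 72 Cyp genes, 44 passed this filter, 26 lay above the percentile in every array and 31 in all 3 vehicle arrays. No array gave 11 of the genes a signal above it. Ear skin was checked against markers of liver, the organ richest in P450 mRNA. Of 8 hepatocyte markers on the array, 5 passed the filter, and their summed signal was 335 to 359 in DNFB arrays, 264 to 361 in BAC arrays and 264 to 297 in vehicle arrays.

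After DNFB, 8 of the 44 tested Cyp genes (18.2%) passed the test against the vehicle, beside 13.8% of all 14122 tested genes. Cyp1a1, Cyp2b19, Cyp2b10, Cyp2j6, Cyp4f39 and Cyp17a1 fell, and Cyp2f2 and Cyp4f18 rose. The 6 falls made up 13.6% of the tested Cyp genes, beside 7.08% of all genes, and the 2 rises 4.55%, beside 6.76% of all genes. After BAC, 6 of 44 passed (13.6%), beside 14.2% of all genes. Cyp1a1, Cyp2b19, Cyp2j6 and Cyp4f39 fell, and Cyp4f18 and Cyp7b1 rose. The 4 falls were 9.09% of the tested Cyp genes, beside 7.64% of all genes, and the 2 rises 4.55%, beside 6.59%. The share called after BAC was thus close to that of all genes. Cyp4f18, counted among the rises after both compounds, passed the filter only through the treated arrays, in which it was high, so its part in these counts is no independent support. Over the 40 tested Cyp genes with at least 1 vehicle array above the filter, a selection made after seeing the data, 7 passed after DNFB (17.5%, beside 14.1% of all such genes) and 5 after BAC (12.5%, beside 14.3%). Each of these counts held 1 rise. The median log2 change over the tested Cyp genes was -0.08 after DNFB and 0.03 after BAC, beside medians of 0.00 and -0.03 over all tested genes. Both comparisons use the same 3 vehicle arrays. Tests were limma fits of log2(signal + 16) with Benjamini-Hochberg adjustment over all tested genes and a threshold of 0.05. All log2 changes are on that scale, which understates the change of dim genes.

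**Figure D1:**
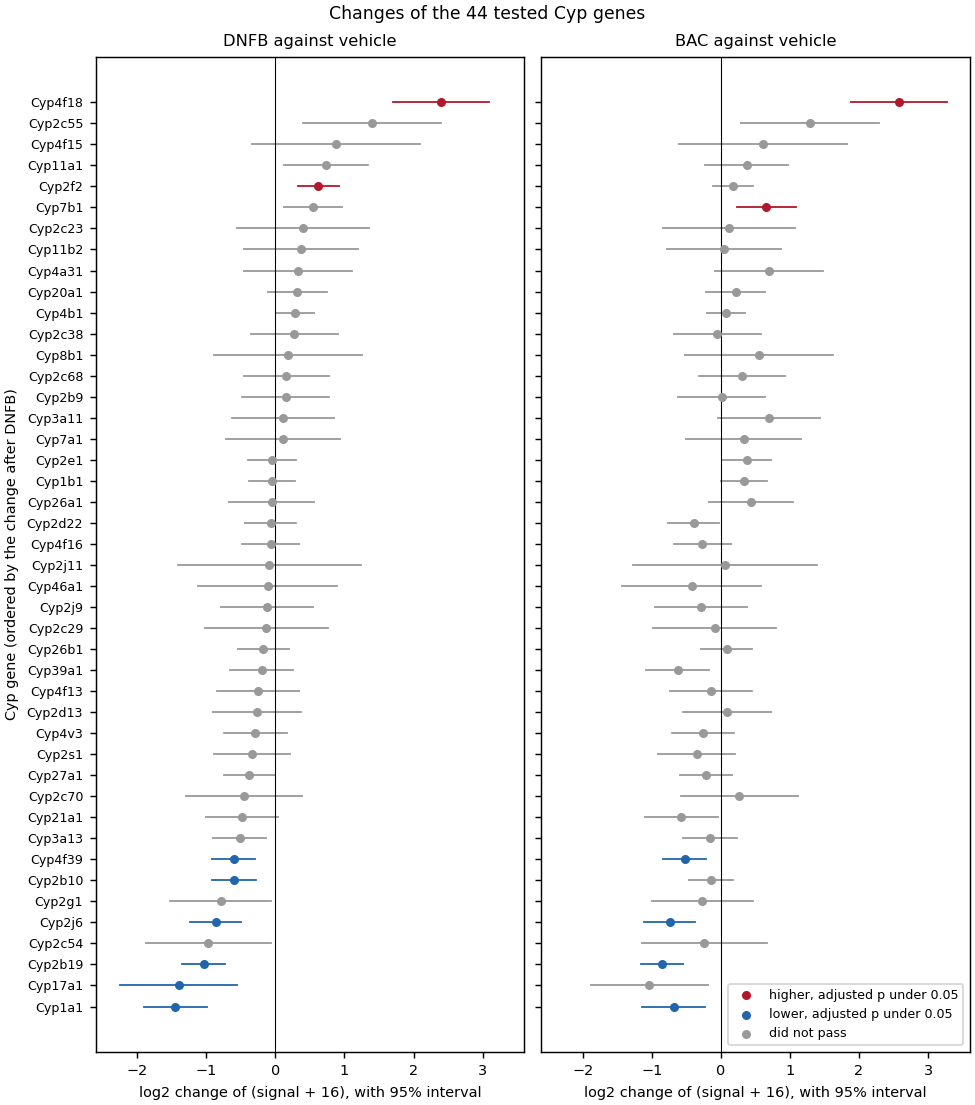
Log2 change of signal + 16 for each of the 44 tested Cyp genes, with its 95% interval, for DNFB against vehicle (left) and BAC against vehicle (right), 3 arrays a group. Genes run from the highest to the lowest change after DNFB, and colour marks those past the limma test. Cyp4f18 stands at 2.39 and 2.58, and the falls reach down to -1.45 for Cyp1a1.

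By family, 4 of the 6 falls after DNFB and 3 of the 4 after BAC lay in families 1 to 3, which hold most of the tested genes. Families 1 to 3 held 43 genes, of which 23 were tested, with 1 rise and 4 falls after DNFB and 0 rises and 3 falls after BAC. Family 4 held 13 genes, 8 of them tested, with 1 rise and 1 fall after each compound. That rise was Cyp4f18 both times, a gene tested only through its high arrays, so it is no independent support. The steroid, sterol and vitamin D families held 13 genes, 10 of them tested, with 1 fall after DNFB and 1 rise after BAC. Neither family 26 gene passed, and Cyp20a1, the only member of its family, did not pass. These counts stand beside rises in 6.76% and falls in 7.08% of all tested genes after DNFB. After BAC the shares of all genes were 6.59% and 7.64%.

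The promoters of 4 genes that passed after both compounds are shown, because 3 of them fell and 1 rose. They are the 250 bases before the start of the gene in RefSeq, build GRCm38.p6, read on the strand of the gene. Cyp1a1 is at chr9:57697363-57697612 on the plus strand, Cyp2b19 at chr7:26756892-26757141 on the plus strand, Cyp4f39 at chr17:32452473-32452722 on the plus strand and Cyp4f18 at chr8:72009627-72009876 on the minus strand. Capitals mark matches to motifs searched on both strands.
Cyp1a1: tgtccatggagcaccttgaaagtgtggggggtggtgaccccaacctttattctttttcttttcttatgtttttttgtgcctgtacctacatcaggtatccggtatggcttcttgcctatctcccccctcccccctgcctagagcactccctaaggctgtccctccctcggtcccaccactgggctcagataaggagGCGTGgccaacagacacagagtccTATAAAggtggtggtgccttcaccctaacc
Cyp2b19: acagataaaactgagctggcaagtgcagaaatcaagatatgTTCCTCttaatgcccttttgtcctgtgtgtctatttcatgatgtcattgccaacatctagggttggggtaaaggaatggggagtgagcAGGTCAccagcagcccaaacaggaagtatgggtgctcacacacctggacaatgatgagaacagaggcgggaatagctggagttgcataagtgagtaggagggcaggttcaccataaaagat
Cyp4f39: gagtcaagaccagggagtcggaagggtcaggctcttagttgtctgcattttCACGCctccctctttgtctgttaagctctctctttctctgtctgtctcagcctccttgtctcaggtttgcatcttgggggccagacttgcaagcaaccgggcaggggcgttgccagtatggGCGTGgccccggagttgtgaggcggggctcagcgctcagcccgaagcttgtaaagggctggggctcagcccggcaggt
Cyp4f18: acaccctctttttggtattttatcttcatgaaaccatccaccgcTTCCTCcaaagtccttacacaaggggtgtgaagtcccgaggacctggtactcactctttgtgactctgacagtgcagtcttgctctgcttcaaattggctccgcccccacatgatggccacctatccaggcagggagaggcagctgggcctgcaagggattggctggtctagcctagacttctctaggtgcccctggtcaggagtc
The motifs were GCGTG, the core bound by the aryl hydrocarbon receptor, TGANTCA (AP-1), AGGTCA (a nuclear receptor half-site), GAGGAA (the PU.1 core), GCCNNNGGC (AP-2) and TATAAA (the TATA box). No marked match overlapped another. Cyp1a1 holds GCGTG at bases -54 to -50 and TATAAA at -30 to -25, counted back from the start. Cyp4f39 holds the same GCGTG core at -78 to -74 and, on the other strand, as CACGC at -199 to -195. Cyp2b19 holds AGGTCA at -121 to -116, and its TTCCTC at -209 to -204 is GAGGAA on the other strand. Cyp4f18 holds only such a TTCCTC, at -206 to -201. Over all 32851 RefSeq promoter windows of this length, GCGTG was found in 28.2%, AGGTCA in 14% and GAGGAA in 23.3%. TGANTCA was found in 6.75%, GCCNNNGGC in 13.7% and TATAAA in 12.4%. Of the 51 Cyp genes with a window, 12 held GCGTG, 12 AGGTCA, 8 GAGGAA, 3 TGANTCA, 5 GCCNNNGGC and 19 TATAAA. These genes had 58 windows, and a gene counted when any of its windows held the motif. The shares over all promoters are per window, so the 2 measures differ in unit. These matches describe the letters of the windows and not sites in use. The window of Cyp2j6, which also fell after both compounds, held none of the 6 motifs. Cyp7b1 and Cyp17a1 had no entry among the promoter windows and were not searched.

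Cyp1a1 (gene 13076) is the classical target of the aryl hydrocarbon receptor, a sensor of planar chemicals, and oxidises polycyclic compounds. Its signal was 198, 130.3 and 149 in DNFB arrays, 377, 252 and 227 in BAC arrays and 550.1, 484 and 355 in vehicle arrays. Every DNFB array lay below every BAC and every vehicle array, while BAC replicate 1 lay above vehicle replicate 3. DNFB lowered it by a log2 change of -1.45 ± 0.21 (SE, adjusted p = 0.000275), to 0.34 times the mean vehicle signal. This call held under all 16 other settings tried. The change after BAC was -0.68 ± 0.21 (adjusted p = 0.0453) and lost its call under 9 of 16 settings. Leaving out 1 array raised its adjusted p to 0.142 without BAC replicate 2, 0.17 without BAC replicate 3, 0.19 without vehicle replicate 1 and 0.118 without vehicle replicate 2. Cyp1a2, the neighbour of Cyp1a1 on chromosome 9, stayed below the 40th percentile in every array, with signals of 17.1 to 37.7 in DNFB arrays, 5.39 to 20.2 in BAC arrays and 8.07 to 12.6 in vehicle arrays.

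Cyp1b1, another target of the aryl hydrocarbon receptor that hydroxylates oestradiol, was read differently by its probe sets. The brightest one gave 453, 401 and 372 in DNFB arrays, 581, 616 and 432 in BAC arrays and 486, 382 and 408 in vehicle arrays. Its groups overlapped, with log2 changes of -0.05 ± 0.15 (adjusted p = 0.875) after DNFB and 0.33 ± 0.15 (adjusted p = 0.177) after BAC. The second gave 99.7, 96.7 and 65.3 in DNFB arrays, 249, 276 and 184 in BAC arrays and 60.3, 51.5 and 86.8 in vehicle arrays. There every BAC array lay above all others. In a fit of each probe set on its own, chosen after seeing the data, this probe set rose after BAC by 1.62 ± 0.25 (adjusted p = 0.000662) and differed between DNFB and BAC by -1.29 ± 0.25 (adjusted p = 0.00788). Whether Cyp1b1 as a gene rose after BAC is therefore uncertain, as the probe sets disagree. The third probe set was below the 40th percentile in every array.

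Among other genes of the aryl hydrocarbon receptor pathway, those that passed after DNFB rose while Cyp1a1 fell. This list and the other gene and marker lists were chosen with earlier results of these data known. Their shares beside those of all genes are thus no independent support. Of 12 listed genes, 7 were tested, and 4 rose and 0 fell after DNFB, while 3 rose and 1 fell after BAC. Over all tested genes, 6.76% rose and 7.08% fell after DNFB, and 6.59% rose and 7.64% fell after BAC. The list median was 0.71 after DNFB and 0.12 after BAC, beside 0.00 and -0.03 over all genes. Tiparp, a target that damps the receptor, rose by 0.71 ± 0.11 after DNFB (adjusted p = 0.000317) and by 0.996 ± 0.11 after BAC (adjusted p = 1.28e-05). Nqo1, a quinone reductase under both this receptor and NRF2, rose by 0.76 ± 0.17 after DNFB (adjusted p = 0.006). Its change after BAC was -0.35 ± 0.17 (adjusted p = 0.182). Nfe2l2, which encodes NRF2, rose by 0.84 ± 0.12 after DNFB and 0.91 ± 0.12 after BAC, and the amino acid carrier gene Slc7a5 by 0.82 ± 0.17 and 0.61 ± 0.17. Aldh3a1, an aldehyde dehydrogenase, fell by 0.52 on the log2 scale after BAC. Its change after DNFB was -0.06 ± 0.15 (adjusted p = 0.857). Ahrr, also listed, did not pass the filter. It gave 32.1, 47.4 and 16.2 in DNFB arrays, 37.0, 60.5 and 4.86 in BAC arrays and 68.9, 44.4 and 46.1 in vehicle arrays. Ahr itself gave 711, 689 and 752 in DNFB arrays, 709, 873 and 853 in BAC arrays and 720.1, 740.4 and 761 in vehicle arrays, with no call for either compound.

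Cyp2b19 (gene 13090) is a keratinocyte epoxygenase, which turns arachidonic acid into epoxides in the upper epidermis of the mouse. Its signal was 464, 455 and 379 in DNFB arrays, 509, 563 and 423 in BAC arrays and 793, 911 and 1020.1 in vehicle arrays. Every treated array lay below every vehicle array, and the DNFB and BAC arrays overlapped. The log2 change was -1.04 ± 0.14 after DNFB (adjusted p = 0.000155) and -0.85 ± 0.14 after BAC (adjusted p = 0.000913), and both calls held under all 16 other settings. The mean signal was 0.48 times that of the vehicle after DNFB and 0.55 times after BAC. In whole skin, fewer cells of a type and less RNA per cell cannot be told apart.

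Cyp4f39 (gene 320997) makes the omega-hydroxylated very long fatty acids of acylceramides, lipids that the skin barrier needs in mice. Its signal was 581, 434 and 437 in DNFB arrays, 458, 572 and 501 in BAC arrays and 669.7, 710.1 and 838 in vehicle arrays. Again no treated array reached a vehicle array. It fell by 0.60 on the log2 scale after DNFB (SE 0.15, adjusted p = 0.0119) and by 0.52 after BAC (SE 0.15, adjusted p = 0.0269). Without vehicle replicate 3 the adjusted p was 0.0682 after DNFB and 0.116 after BAC. It was 0.0518 after DNFB without DNFB replicate 2, and after BAC it was 0.0908 without BAC replicate 1 and 0.0762 without BAC replicate 3.

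Cyp2j6 belongs to the CYP2J subfamily, whose human member CYP2J2 makes epoxides of arachidonic acid. Its signal was 174, 166 and 221 in DNFB arrays, 239, 198 and 177 in BAC arrays and 306, 379 and 370.3 in vehicle arrays. All 6 treated arrays lay below the vehicle arrays. The log2 change was -0.86 ± 0.17 after DNFB (adjusted p = 0.00322) and -0.74 ± 0.17 after BAC (adjusted p = 0.00929). Its other tested probe set did not pass, with -0.21 ± 0.31 after DNFB and -0.48 ± 0.31 after BAC. With the mean of both probe sets the call after DNFB was lost (adjusted p = 0.0606).

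The enzymes that work beside these P450s were followed in a list of 11 epoxide hydrolases and lipoxygenases, of which 8 were tested. Earlier results of these data were known when the list was chosen, so its shares are no independent support. After DNFB 0 rose and 5 fell (62.5%, beside falls in 7.08% of all genes), with a median of -0.60 beside 0.00 over all genes. After BAC 0 rose and 2 fell (25%, beside 7.64%), with a median of -0.33 beside -0.03. Alox12b, the lipoxygenase that oxidises the linoleate of acylceramides, had signals of 611, 565 and 797 in DNFB arrays, 1064, 1439.9 and 898 in BAC arrays and 1507, 1666 and 1734 in vehicle arrays. It was below the vehicle arrays in all 6 treated arrays, by -1.31 ± 0.16 after DNFB (adjusted p = 6.14e-05) and -0.55 ± 0.16 after BAC (adjusted p = 0.0346). Aloxe3, which acts on the product of Alox12b, fell by 0.55 after DNFB (adjusted p = 0.0202) and by 0.46 after BAC (adjusted p = 0.0449) on the log2 scale. Ephx3, an epoxide hydrolase of the epidermis, fell by 0.94 after DNFB (adjusted p = 0.0141), and its change after BAC was -0.43 ± 0.23 (adjusted p = 0.251). Alox12e and Alox12 also fell after DNFB.

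Keratinocyte markers, chosen with earlier results of these data known, moved beside these genes. Of 13 tested markers of differentiated keratinocytes, 0 rose and 5 fell after DNFB (38.5%, beside 7.08% of all genes) and 0 rose and 6 fell after BAC (46.2%, beside 7.64%). Their medians were -0.13 and -0.14, beside 0.00 and -0.03 over all genes. Their summed signal was 113509 to 132905 in DNFB arrays, 113334 to 126568 in BAC arrays and 123275 to 140736 in vehicle arrays. Of 8 basal keratinocyte markers, 5 fell after DNFB (62.5%, beside 7.08%) and 3 after BAC (37.5%, beside 7.64%). Their summed signal was 23610 to 27169 in DNFB arrays, 27682 to 32954 in BAC arrays and 35115 to 35582 in vehicle arrays. No marker of either list lay below the 40th percentile in every array. Their part in the falls of Cyp2b19, Cyp2j6 and Cyp4f39 was not tested.

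**Figure D2:**
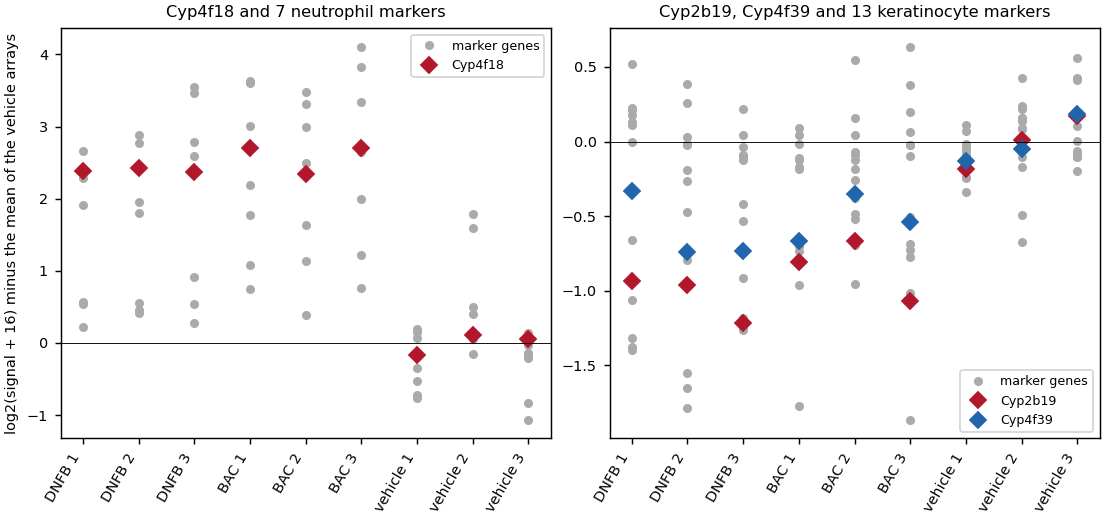
Log2(signal + 16) of each array minus the mean of the 3 vehicle arrays. The left panel shows Cyp4f18 with 7 neutrophil markers and the right panel Cyp2b19 and Cyp4f39 with 13 markers of differentiated keratinocytes; grey points are single marker genes. Cyp4f18 lies over 2 in all treated arrays and near 0 in vehicle replicate 2, where S100a8 and S100a9 are above 1. Cyp2b19 and Cyp4f39 lie below 0 in all 6 treated arrays.

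Cyp2b10, in liver a target of the receptor CAR that oxidises many drugs, passed after DNFB alone. Its signal was 371, 261 and 313 in DNFB arrays, 387, 502 and 427 in BAC arrays and 481, 488 and 479.6 in vehicle arrays. The DNFB arrays lay below all BAC and vehicle arrays, and 1 BAC array lay above the vehicle arrays. The log2 change was -0.60 ± 0.15 after DNFB (adjusted p = 0.0134) and -0.14 ± 0.15 after BAC (adjusted p = 0.586), and the call after DNFB was lost without DNFB replicate 2 (adjusted p = 0.062). Its 2 other probe sets fell after DNFB as well, by 1.11 and 0.82 on the log2 scale (adjusted p = 0.00101 and 0.00192). Both have the ending _s_at, which Affymetrix gives to probe sets that can read more than 1 transcript, so they may share signal with close relatives. Nr1i3, the gene of CAR, did not pass the filter, with signals of 5.54 to 28.9 in DNFB arrays, 3.58 to 13.2 in BAC arrays and 5.88 to 9.42 in vehicle arrays.

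Cyp2f2, known for activating naphthalene in the airways of mice, was the member of families 1 to 3 that rose. Its signal was 2628, 3825 and 3648.5 in DNFB arrays, 2459, 2146 and 2712 in BAC arrays and 2225, 2257 and 1986 in vehicle arrays. Each DNFB array lay above each vehicle array, while BAC arrays overlapped both. The log2 change was 0.62 ± 0.14 after DNFB (adjusted p = 0.00628), or 1.56 times the mean vehicle signal, and 0.17 ± 0.14 after BAC (adjusted p = 0.45). Without an intensity trend in the fit the call after DNFB was lost (adjusted p = 0.0564). Markers of skeletal muscle, chosen with earlier results of these data known, moved in the same arrays. Of 13 tested, 6 rose and 0 fell after DNFB (46.2%, beside rises in 6.76% of all genes), and 0 passed after BAC, beside 14.2% of all genes. Their summed signal was 51904 to 64718 in DNFB arrays, 40680 to 62790 in BAC arrays and 36161 to 48475 in vehicle arrays. Of 9 fibroblast and matrix markers, 3 rose after DNFB (33.3%, beside 6.76%) and 1 after BAC (11.1%, beside 6.59%), and 0 fell. Other lists rose after DNFB as well, with 4 of 8 macrophage and monocyte and 5 of 7 neutrophil markers. So did 2 of 8 endothelium and 1 of 7 adipocyte markers. In the keratinocyte, sebaceous gland, and Langerhans and dendritic cell lists, some markers fell and 0 rose. The part of any of these cell types in the rise of Cyp2f2 was not tested.

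Cyp2f2, Cyp2b10 and Cyp2b19 lie along 1 stretch of chromosome 7 in RefSeq. The measured Cyp genes stand there in the order Cyp2s1, Cyp2b10, Cyp2b13, Cyp2b9, Cyp2b19, Cyp2g1, Cyp2a12 and Cyp2f2. Neighbours differed in their values. Between the falls of Cyp2b10 and Cyp2b19 lie Cyp2b13, which was not tested, and Cyp2b9, which changed by 0.15 ± 0.30 after DNFB and 0.01 ± 0.30 after BAC without passing. Cyp2g1, next to Cyp2b19 and best known from olfactory tissue, varied within groups, with 277, 216 and 186 in DNFB arrays, 501, 383 and 180 in BAC arrays and 219, 618 and 458 in vehicle arrays. Its change of -0.79 ± 0.34 after DNFB did not pass (adjusted p = 0.156), except without vehicle replicate 1 (-1.20, adjusted p = 0.025). Cyp2s1, a P450 of epithelia, gave 123, 81.5 and 77.5 in DNFB arrays, 110.5, 86.5 and 79.9 in BAC arrays and 109, 104 and 157 in vehicle arrays. Its groups overlapped and neither change passed.

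Cyp2e1, the ethanol-oxidising P450, gave 259, 315 and 423 in DNFB arrays, 444, 422 and 460.4 in BAC arrays and 324, 321 and 366 in vehicle arrays. Every BAC array lay above the vehicle arrays, but the change of 0.38 ± 0.16 did not pass (adjusted p = 0.144). Among the other members of families 1 to 3, Cyp2c55 was picked out after its values were seen. Its signal was 112, 65.0 and 29.7 in DNFB arrays, 37.2, 60.3 and 77.9 in BAC arrays and 13.1, 12.9 and 14.7 in vehicle arrays. The treated arrays all lay above the vehicle arrays, none of which reached the 40th percentile, so it too was tested only through treated arrays and its vehicle level is a bound. It did not pass after DNFB (adjusted p = 0.0619) or after BAC (adjusted p = 0.0809).

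**Figure D3:**
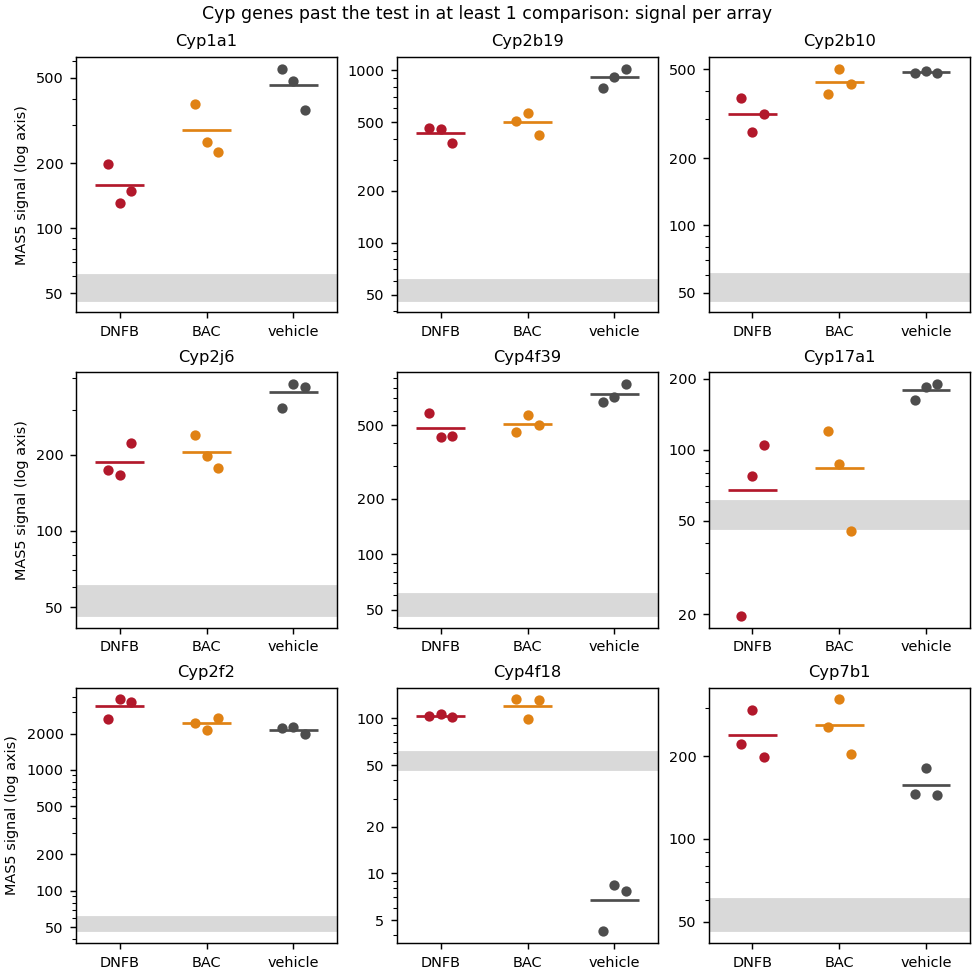
MAS5 signal per array on a log axis for the 9 Cyp genes that passed the limma test in at least 1 comparison; points are arrays, lines group means, and the grey band spans the 40th percentiles of the 9 arrays. Vehicle arrays of Cyp4f18 lie between 4.23 and 8.45, below the band, and its treated arrays between 98.6 and 132 above it.

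Cyp4f18 (gene 72054) hydroxylates leukotriene B4, a neutrophil attractant, and is known from mouse neutrophils. Its signal was 103, 106 and 101 in DNFB arrays, 132, 98.6 and 131 in BAC arrays and 4.23, 8.45 and 7.67 in vehicle arrays. All 6 treated arrays lay above the 40th percentile and all 3 vehicle arrays below it, so the gene passed the filter only through the arrays in which it was high. The vehicle level is therefore known only as a bound. Against the mean 40th percentile of the vehicle arrays (50.7), the mean signal was at least 2.04-fold higher after DNFB and at least 2.38-fold higher after BAC. The limma fit gave adjusted p = 0.000137 after DNFB and 6.38e-05 after BAC, for a gene admitted by the filter through its high arrays. Its fitted log2 changes of 2.39 and 2.58 are not a measured size, since they depend on the constant added to the dim vehicle signals. With 1 in place of 16 they were 3.79 after DNFB and 4.0 after BAC, and with 64 they were 1.24 and 1.38. The second probe set of the gene stayed below the 40th percentile in every array, and the gene was not tested when probe sets were averaged or when the filter stood at the 60th percentile.

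Neutrophil markers, chosen with earlier results of these data known, were high in the same arrays. Of 7 tested, 5 rose after DNFB (71.4%, beside 6.76% of all genes) and 7 after BAC (100%, beside 6.59%), with medians of 2.22 and 2.45, beside 0.00 and -0.03 over all genes. Their summed signal was 13996 to 23760.2 in DNFB arrays, 22794 to 32564 in BAC arrays and 3659 to 8654 in vehicle arrays. The highest of the vehicle sums, 8654, was that of vehicle replicate 2, in which Cyp4f18 gave 8.45. S100a8 and S100a9 set that sum apart. They gave 2565 and 2633 there, beside 487 and 451 in vehicle replicate 1 and 464 and 352 in vehicle replicate 3. Among the vehicle arrays, Cxcr2, Clec4d and Il1r2 were also highest in replicate 2, while Csf3r and Mmp9 were not. No marker lay below the 40th percentile in every array. Of 8 macrophage and monocyte markers, 4 rose after each compound (50%, beside 6.76% of all genes after DNFB and 6.59% after BAC). Their part in the rise of Cyp4f18 was not tested.

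No other tested member of family 4 passed as higher. Cyp4a31 and Cyp4f15, also tested only through treated arrays, had wide intervals that reach large rises. Cyp4a31 changed by 0.33 ± 0.37 after DNFB and 0.69 ± 0.37 after BAC, where every BAC array lay above every vehicle array. Cyp4f15 changed by 0.88 ± 0.57 and 0.60 ± 0.57, with intervals of -0.34 to 2.09 and -0.61 to 1.82. The changes of Cyp4f13, Cyp4f16 and Cyp4v3 were negative after both compounds. Cyp4f16, Cyp4f15, Cyp4f14 and Cyp4f13 lie near Cyp4f39 on chromosome 17, and none of the 3 tested ones passed; Cyp4f14 was not tested. Cyp4b1, which oxidises medium-chain fatty acids and foreign chemicals, gave 745, 639 and 638 in DNFB arrays, 572, 625 and 544 in BAC arrays and 614, 485 and 554 in vehicle arrays. The DNFB arrays all lay above the vehicle arrays, but the change of 0.29 ± 0.13 did not pass (adjusted p = 0.17). After BAC it was 0.08 ± 0.13.

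Cyp7b1, an oxysterol hydroxylase, acts on the hydroxycholesterol that Ch25h makes, and together they form a lipid that guides immune cells through the receptor GPR183. Its signal was 222, 295 and 199 in DNFB arrays, 256, 321 and 204 in BAC arrays and 146, 181 and 145 in vehicle arrays. All treated arrays lay above all vehicle arrays. It rose after BAC by 0.66 ± 0.20 (adjusted p = 0.0374), and its change after DNFB was 0.54 ± 0.20 (adjusted p = 0.0869). The call after BAC was lost under 7 of 16 other settings, among them centring the arrays on their medians (adjusted p = 0.104). It was also lost without BAC replicate 1 (0.078), BAC replicate 2 (0.165), vehicle replicate 1 (0.122) or vehicle replicate 3 (0.11). A second probe set, of the _s_at kind, gave 191, 271 and 232 in BAC arrays and 115, 140.5 and 84.3 in vehicle arrays, a rise of 0.95 ± 0.26 (adjusted p = 0.0259).

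In the list of 19 other steroid and vitamin D genes, 12 were tested, and 1 rose and 2 fell after DNFB (25% called, beside 13.8% of all genes) while 1 rose and 1 fell after BAC (16.7%, beside 14.2%). The count after BAC was thus near that of all genes. Their medians were 0.00 and -0.02, beside 0.00 and -0.03. Ch25h gave 469, 366 and 274 in DNFB arrays, 799.96, 1522 and 1353 in BAC arrays and 139, 134 and 93.9 in vehicle arrays. It was highest in the BAC arrays, with no overlap among the 3 groups, and rose by 1.46 ± 0.23 after DNFB (adjusted p = 0.000535) and 3.13 ± 0.23 after BAC (adjusted p = 2.8e-07). Dhcr7, the last step of cholesterol synthesis, fell by 0.88 and 0.93 on the log2 scale, and Sult2b1, which sulphates cholesterol in the epidermis, fell by 0.68 after DNFB.

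Cyp17a1, a hydroxylase and lyase on the way to glucocorticoids and sex steroids, gave 19.7, 77.4 and 105 in DNFB arrays, 119.9, 86.7 and 45.4 in BAC arrays and 162, 185 and 190.0 in vehicle arrays. All treated arrays lay below all vehicle arrays, with DNFB replicate 1 the lowest. The change was -1.40 ± 0.40 after DNFB (adjusted p = 0.0284) and -1.03 ± 0.40 after BAC (adjusted p = 0.0996, or 0.0285 with only the BAC and vehicle arrays in the fit). Without DNFB replicate 1 the change after DNFB was -0.87 (adjusted p = 0.0941), and the adjusted p was 0.0658, 0.0705 and 0.0952 without vehicle replicate 1, 2 and 3. The call was lost under 7 of 16 other settings, which also include no filter (adjusted p = 0.0569), quantile normalization (0.053) and no intensity trend (0.09). Of 9 sebaceous gland markers, 0 rose and 5 fell after DNFB (55.6%, beside falls in 7.08% of all genes), and 0 passed after BAC, beside 14.2% of all genes. Their summed signal was 38812 to 46997 in DNFB arrays, 42406 to 46336 in BAC arrays and 39663 to 44417 in vehicle arrays. Their part in the change of Cyp17a1 was not tested.

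Of the vitamin D enzymes named here, which are not all such enzymes, Cyp27a1 was tested and Cyp27b1 and Cyp24a1 were not. Cyp27a1, a mitochondrial sterol hydroxylase, gave 199, 174 and 199.5 in DNFB arrays, 260.3, 168 and 227 in BAC arrays and 262, 247 and 247 in vehicle arrays. The DNFB arrays lay below the vehicle arrays, but the change of -0.38 ± 0.17 did not pass (adjusted p = 0.185). Cyp27b1, which makes active vitamin D, gave 76.2, 10.6 and 34.4 in DNFB arrays, 12.1, 68.3 and 41.3 in BAC arrays and 10.7, 2.47 and 7.41 in vehicle arrays. Cyp24a1, which inactivates vitamin D, gave 39.3, 17.0 and 9.21 in DNFB arrays, 43.3, 37.5 and 73.0 in BAC arrays and 18.3, 4.95 and 5.7 in vehicle arrays. Without any filter it was the only one of the 28 otherwise untested Cyp genes with a call, a change of 1.39 ± 0.38 after BAC (adjusted p = 0.0361), and only 1 of its 9 signals lay above the 40th percentile. Vdr, the vitamin D receptor, gave 246, 231 and 363 in DNFB arrays, 551, 449 and 352 in BAC arrays and 531, 540.2 and 555 in vehicle arrays. It fell after DNFB by 0.94 on the log2 scale (adjusted p = 0.00244), with a change of -0.28 ± 0.18 after BAC (adjusted p = 0.345).

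The retinoic acid hydroxylases did not pass after either compound. Cyp26b1 gave 1116, 1930.1 and 1523 in DNFB arrays, 1957, 1409 and 2038 in BAC arrays and 1715, 1532 and 1799 in vehicle arrays. Cyp26a1 gave 319, 905 and 489 in DNFB arrays, 692, 552 and 1064 in BAC arrays and 534, 630.1 and 474 in vehicle arrays. In both genes the groups overlapped, and the 95% interval of the log2 change was -0.55 to 0.20 after DNFB and -0.29 to 0.46 after BAC for Cyp26b1. For Cyp26a1 it was -0.66 to 0.56 and -0.17 to 1.05. Of 16 listed genes of retinoid handling, 11 were tested, with 0 rises and 3 falls after DNFB (27.3%, beside falls in 7.08% of all genes) and 0 rises and 1 fall after BAC (9.09%, beside 7.64%). The count after BAC was thus near that of all genes. Rdh11, a retinal reductase, fell by 0.82, Crabp2, which carries retinoic acid to its receptor, by 0.67 and Dgat1, which can esterify retinol, by 0.59 on the log2 scale after DNFB. Rdh12 fell by 0.82 after BAC.

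A list of 19 genes covered P450 redox partners and the making, handling and breakdown of haem. Por, the reductase gene, was listed but had no single-gene probe set under that symbol. Of the 15 tested, 1 rose and 2 fell after DNFB (20% called, beside 13.8% of all genes). After BAC 0 rose and 2 fell (13.3%, beside 14.2%). The 1 rise was that of Hmox1. Hmox1, which breaks haem down, gave 11293, 8075 and 7529.6 in DNFB arrays, 1332, 1374 and 1165 in BAC arrays and 1119, 1673 and 1260.4 in vehicle arrays. It rose after DNFB by 2.71 ± 0.16 (adjusted p = 4.12e-08), and its change after BAC was -0.05 ± 0.16. Cpox, an enzyme of haem synthesis, fell by 0.88 after DNFB and 0.92 after BAC, and Pgrmc2, a haem chaperone, by 0.52 and 0.43, on the log2 scale. Of 15 tested nuclear receptor genes tied to P450 genes, 1 rose and 2 fell after DNFB (20% called, beside 13.8%) and 1 rose and 1 fell after BAC (13.3%, beside 14.2%). In both lists the share called after BAC was close to that of all genes. Rxra, a partner of several of these receptors, fell by 0.85 after DNFB and 0.73 after BAC on the log2 scale. Pparg rose by 0.57 ± 0.17 and 0.63 ± 0.17.

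Between DNFB and BAC, 1 of the 44 tested Cyp genes passed (2.27%), beside 6.8% of all tested genes. The median log2 difference was -0.12 over the Cyp genes and 0.03 over all genes. No Cyp gene was higher, beside 3.14% of all genes, and 1 was lower, beside 3.66%. The gene was Cyp1a1, lower after DNFB by -0.77 ± 0.21 (adjusted p = 0.0424), at 0.56 times the mean BAC signal, with all DNFB arrays below all BAC arrays. The call was lost under 10 of 16 other settings. Leaving out 1 array raised the adjusted p to 0.162 without BAC replicate 1, 0.0773 without BAC replicate 2, 0.146 without DNFB replicate 2 and 0.121 without DNFB replicate 3. The differences of Cyp2b10 (-0.46 ± 0.15, adjusted p = 0.0789) and Cyp2f2 (0.45 ± 0.14, adjusted p = 0.0616) did not pass, but both did without DNFB replicate 1 (adjusted p = 0.0378 and 0.00858). Likewise the difference of Cyp2e1 passed only without DNFB replicate 3 (-0.60, adjusted p = 0.0447). Both _s_at probe sets of Cyp2b10 were lower after DNFB than after BAC, by -0.71 ± 0.18 (adjusted p = 0.037) and -0.83 ± 0.15 (adjusted p = 0.00405) in the fit of each probe set on its own. For Cyp2b19 the 95% interval of the difference was -0.50 to 0.11, for Cyp4f39 -0.39 to 0.23 and for Cyp4f18 -0.88 to 0.51.

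**Figure D4:**
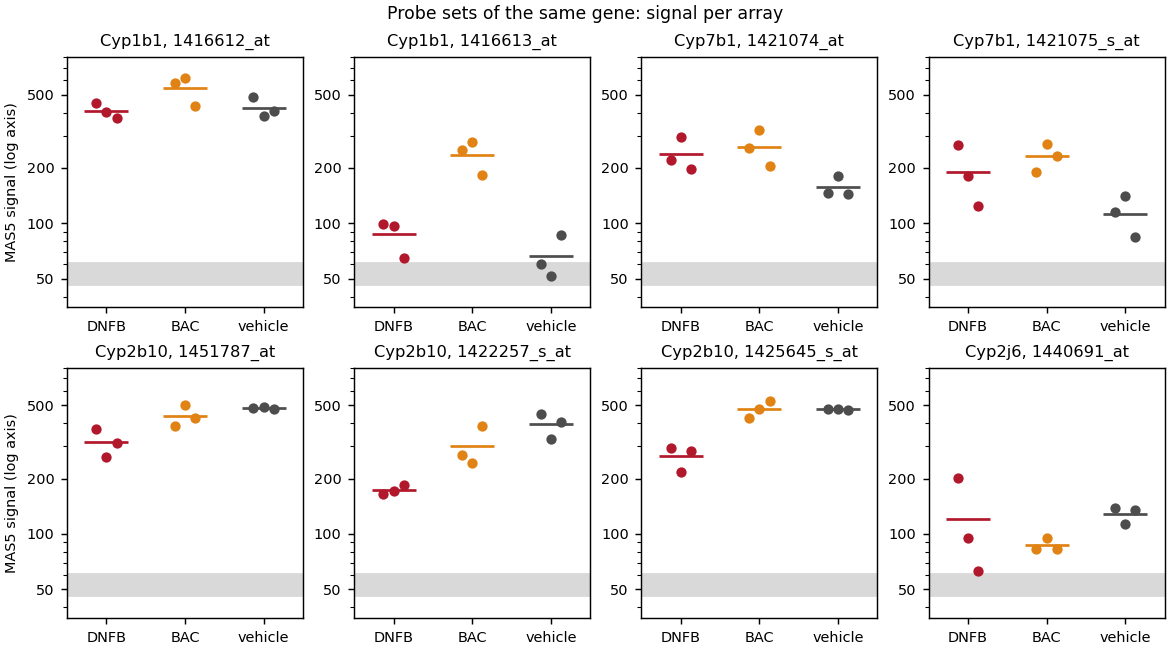
MAS5 signal per array on a log axis for probe sets of Cyp1b1, Cyp7b1, Cyp2b10 and Cyp2j6; points are arrays, lines group means, and the grey band spans the 40th percentiles of the arrays. The brightest Cyp1b1 probe set (first panel) overlaps between groups, while the second (next panel) is at 184 to 276 in BAC arrays and at most 99.7 elsewhere.

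The 28 Cyp genes that did not pass the filter had signals between 0.76 and 85.6, with a median of 15.8. Most of them belong to subfamilies 2c, 2d, 2j, 3a and 4a. In 17 of the 72 genes, 1 or 2 of the 9 arrays lay above the 40th percentile. Cyp4a31, Cyp4f15, Cyp2c55 and Cyp4f18 were tested although no vehicle array lay above it. Groups of arrays that did not overlap were found in 17 tested Cyp genes for DNFB against vehicle (38.6%, beside 30.9% of all genes) and in 14 for BAC against vehicle (31.8%, beside 34.1%). Between DNFB and BAC they were found in 5 (11.4%, beside 25.2%). An unadjusted p under 0.05 was reached by 16 tested Cyp genes after DNFB (36.4%, beside 26.3% of all genes), 13 after BAC (29.5%, beside 27.7%) and 5 between DNFB and BAC (11.4%, beside 21.6%).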

How the data were processed

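Ear skin RNA (TRIzol, then RNeasy Plus) was biotin-labelled with the Affymetrix 3′ IVT Express kit, per the labels' protocols. The authors deposited 1 MAS5 intensity per probe set and array, unlogged, made in Affymetrix Expression Console per the submitters' processing notes. Software versions and settings are not stated there, and no detection call, scan date or batch entered the work. Sample titles gave the groups and replicate numbers, and 0 arrays were identical to another.

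Genes were named through the platform annotation. Of 45101 probe sets, 64 were controls, 34945 had 1 gene symbol and 932 several. Each gene took its brightest probe set by mean log2 value, and 4 Cyp probe sets with several genes were left out. Signals were transformed as log2(signal + 16) and kept where above the 40th percentile in at least 3 arrays. All 9 arrays entered one linear model in limma 3.58.1 (R 4.3.3; lmFit, eBayes with an intensity trend, two-sided), with 6 residual and 9.09 prior degrees of freedom. P-values were adjusted over 14122 genes. With 3 arrays a group the smallest exact permutation p is 0.1, so that test was left out. The procedure was tested on simulated data.

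The named genes are every Cyp gene past the test, the 10 with the highest vehicle signal and a set of Cyp genes known from skin or from these pathways. Called members of the gene lists are named too, in some lists more than the planned 3. A few other genes are given for context. The members, gene lists and markers were chosen with earlier results of these data known. Alternatives covered the added constant, the filter, normalization, probe set choice, the intensity trend, the replicate block, arrays left out and the groups fitted. Promoters are from RefSeq GRCm38.p6. RefSeq symbols matched the annotation.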

Additional observations from a re-analysis of the deposited data

How the results depend on the processing

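Over 16 other settings the number of Cyp genes called lay between 6 and 9 for DNFB against vehicle and between 4 and 7 for BAC against vehicle (8 and 6 as reported). For DNFB against BAC it was 0 with no filter, with quantile normalization, with arrays centred on the median, with no intensity trend and with only the 2 groups compared. It was 2 when each probe set was fitted on its own, a choice made after seeing the data. Those were Cyp1b1 and Cyp2b10, while Cyp1a1 lost its call there (adjusted p = 0.0537), as it did for BAC against vehicle (0.0566). The number was 0 to 3 when 1 array was left out (3 without DNFB replicate 1, and 0 without DNFB replicate 2, BAC replicate 1 or BAC replicate 2). Counted only over genes above the filter in at least 1 vehicle array, also a choice made after seeing the data, the number was 7 for DNFB and 5 for BAC against vehicle. Of the settings applied to the called Cyp results, 193 kept the call, 43 lost it and 0 turned its direction. The kept calls include all 14 settings of Cyp4f18 after DNFB and all 14 after BAC. The main filter admitted that gene only through its high arrays, so these are no independent support. Settings in which it was not tested are not counted. Median centring moved the median of all genes to -0.13 for BAC against vehicle and 0.11 for DNFB against BAC, and changed the split of all calls for BAC against vehicle to 570 higher and 1157 lower, beside 930 and 1079 as reported. All genes called numbered 1955, 2009 and 961 in the 3 comparisons as reported. They numbered 1202 for DNFB against vehicle and 402 for DNFB against BAC with no intensity trend, and 581 for DNFB against BAC with median centring. Without vehicle replicate 1 they numbered 1276 for DNFB and 1225 for BAC against vehicle, and without vehicle replicate 3 1249 for DNFB against vehicle. For DNFB against BAC they numbered 608, 571 and 513 without DNFB replicate 2, DNFB replicate 3 and BAC replicate 2. Same-numbered arrays did not deviate together. They correlated at -0.122 to 0.153 in their deviations from group means, and 2 of 9 arrays correlated best with their own number. With so few arrays a group, this cannot show whether a left and a right ear came from the same mouse. The labels do not state it either, so a pairing of ears stays possible. With the number as a replicate block, 9, 6 and 1 Cyp genes were called, the added one being Cyp7b1 after DNFB (adjusted p = 0.0449).

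Directions turned only among results that had not passed. Quantile normalization gave 0.0159 for Cyp1b1 and 0.0244 for Cyp2e1 in DNFB against vehicle. Median centring gave -0.0204 for Cyp26b1 and -0.0249 for Cyp4b1 in BAC against vehicle and 0.0034 for Cyp4f39 in DNFB against BAC, where the mean of probe sets gave 0.0756 for Cyp2j6. With 1 array left out, the log2 change for DNFB against vehicle ranged from -0.3606 to 0.0304 in Cyp26b1, -0.4404 to 0.2883 in Cyp26a1, -0.1259 to 0.0435 in Cyp1b1 and -0.2246 to 0.1123 in Cyp2e1. For BAC against vehicle it ranged from -0.015 to 0.2486 in Cyp26b1, -0.01 to 0.1555 in Cyp4b1 and -0.6762 to 0.1366 in Cyp2g1. For DNFB against BAC it ranged from -0.718 to 0.1603 in Cyp17a1, -0.2166 to 7e-04 in Cyp4f39, -0.2692 to 0.0385 in Cyp7b1 and -0.1716 to 0.1269 in Cyp2s1. The cause of these turns was not tested. The number of arrays limits the precision, and signals near the 40th percentile have no detection call to set them apart from background.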
